A study of Mus musculus with 4 samples.

Results

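Ion channel genes were compared between 2 kinds of natural killer (NK) cell sorted from mouse liver. The genes were taken by symbol: those starting with Kcn, Cacn, Trpm, Trpv, Trpc or Clcn, and Orai1 to Orai3, Stim1, Stim2, Hvcn1 and Piezo1 (listed under its older symbol Fam38a). The rule uses symbols and no measured value. It gave 155 of 21025 rows, which stand for 154 genes because Orai2 is listed in 2 rows with different transcripts. PolyA RNA of C57BL/6 livers was sequenced in 4 libraries. TRAIL+ cells (TCRb-NK1.1+NKp46+, with TRAIL on the surface and no CD49b) gave 2 libraries, and CD49b+ cells (the same gate, with the integrin subunit CD49b and no TRAIL, a death ligand) gave the other 2. A density gradient and red cell lysis came before the sort. The labels give no age, sex or treatment, and nothing in them says that replicate libraries are of different animals. The p-values therefore describe the spread between libraries, part or all of which may be technical. The series title names the factor Nfil3, and the files used here compare only the sorted subsets.

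Ion channels let ions cross membranes down their gradients. In lymphocytes, potassium channels keep the cell interior negative, which draws calcium in. Calcium enters mainly through ORAI pores in the plasma membrane, opened by STIM proteins that sense when the store of the endoplasmic reticulum is empty. The resulting calcium signal drives granule release and the transcription factor NFAT. Chloride transporters of the CLC family and the proton channel HVCN1 act on the charge and acidity of vesicles and of cells that make superoxide.

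TRAIL+ cells held 3.85-fold more Hvcn1 RNA than CD49b+ cells, and far less RNA of Kcnip3, which encodes a calcium-binding partner of potassium channels, and of Kcnn4, the calcium-activated potassium channel of lymphocytes. The potassium channel beta subunit gene Kcnab2, the calcium pore gene Orai2 and the cation channel gene Trpv2 were also lower in TRAIL+ cells, by 1.84-fold to 2.68-fold. In contrast, the calcium pore genes Orai1 and Orai3 and the abundant potassium channel genes Kcnj8 and Kcnk5 did not pass the test, with log2 fold changes between -0.10 and 0.06. Values are RPKM, reads scaled to the length of the gene and to the reads of the library. Log2 fold changes (TRAIL+ minus CD49b+) were taken after adding 1 to each RPKM, so changes of rows with few reads come out too small, and rows past an adjusted p of 0.05 in limma are called changed.

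Of the 155 rows, 87 were listed at 0 in every library (56.1%, against 34.9% of all rows), a reading that need not mean absent RNA since the ribosomal protein gene Rpl26 is also listed at 0 throughout. Another 39 were above 0 but too low to be tested, and 29 were tested. Of the 29, 9 were called changed: in TRAIL+ cells 1 was higher and 8 were lower. Among all 10047 genes tested, 8.62% differed, 4.76% higher and 3.86% lower. Kcnip3, Kcnn4, Kcnab3 and Kcnk10 entered the test only through the CD49b+ libraries, where they are high. The filter alone thus kept their groups apart and favoured a call. Of the 25 rows that entered through both groups, 5 differed, and of all 9639 genes that did so 6.53% differed. The median log2 fold change of the 29 was -0.48, against 0.01 for all tested genes. That median includes Kcnip3, Kcnn4, Kcnab3 and Kcnk10, which pull it down, and it was not taken without them. By role, the lower members were 3 of 3 tested potassium auxiliary subunits, 3 of 7 tested potassium pores, 1 of 6 rows of store-operated calcium entry and 1 of 4 TRP channels, and the higher member was Hvcn1. Counting only rows that entered through both groups, this leaves 1 of 1 auxiliary subunit and 1 of 5 potassium pores. None of the 5 tested chloride transporters passed. Without CD49b+ replicate 1 or without CD49b+ replicate 2, 3 members were lower and 1 higher, without TRAIL+ replicate 1, 12 were lower and 1 higher, and without TRAIL+ replicate 2, 8 were lower and 2 higher.

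**Figure D1:**
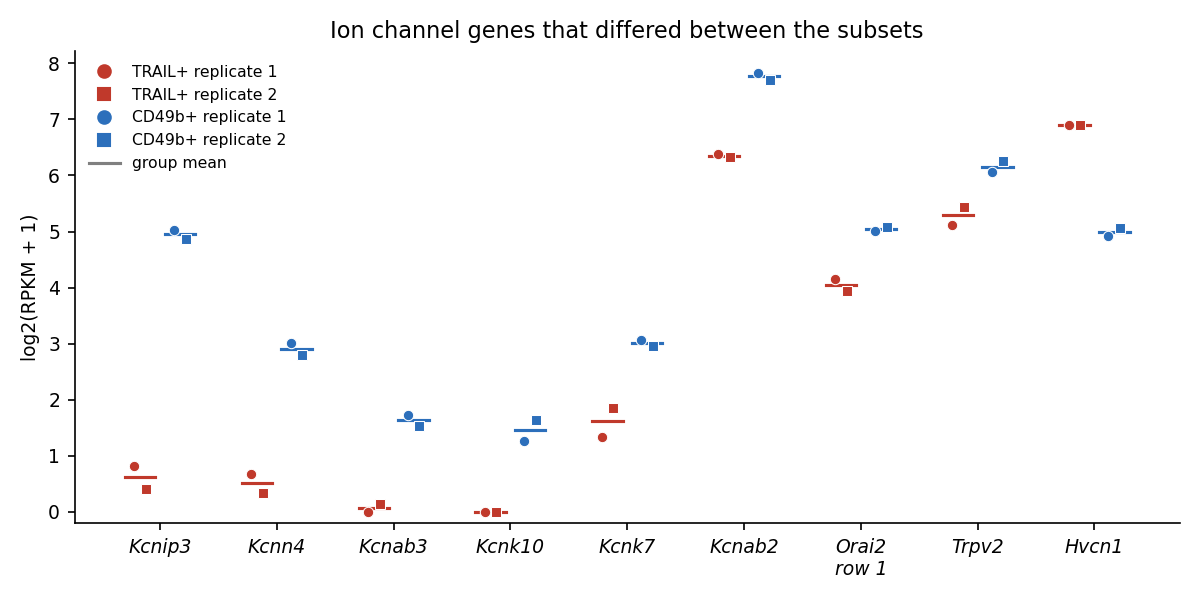
Values of the 9 called rows in each library, as log2(RPKM + 1), with circles for replicate 1, squares for replicate 2 and bars at the log2 of the group mean plus 1. Hvcn1 is higher in both TRAIL+ libraries, and the other 8 rows are lower in both.

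The libraries held 3786497 to 4232967 reads each, as recovered from the size of single steps in the values. The sort genes followed the labels, with Tnfsf10 (TRAIL) at 208 and 189 RPKM in TRAIL+ cells and 7.26 and 6.94 in CD49b+ cells, and Itga2 (CD49b) at 5.26 and 1.55 against 52.1 and 37.0 RPKM. All 5 NK cell markers were tested, at summed levels of 8817 and 12240 RPKM in TRAIL+ and 5051 and 6009 RPKM in CD49b+ libraries. Of these, Cd7 was higher in TRAIL+ cells (8.97-fold, limma adjusted p = 0.00363) and 4 did not pass. Of the 6 tested T-cell markers, 5 were higher and 1 lower in TRAIL+ cells (summed RPKM 80.1 and 144 against 39.0 and 43.5). Cd4 and Cd8a, which are among the 5, entered the test only through the TRAIL+ libraries. Of 4 B-cell, 4 monocyte and Kupffer cell, 2 neutrophil, 3 hepatocyte, 1 endothelial or stellate and 2 erythroid or platelet markers tested, 0 were called. Monocyte and Kupffer cell markers summed to 95.2 and 15.6 RPKM in TRAIL+ replicates 1 and 2, and to 135 and 15.3 RPKM in CD49b+ replicates 1 and 2. In these bulk samples, fewer cells of a type and less RNA per cell cannot be told apart.

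Of the genes lower in TRAIL+ cells, 3 have a single transcription start in the RefSeq table used (GRCm38.p6, a later build than the mm9 of the files). Their upstream sequences are shown because each gene was called lower and has a single start. Whether the genes share a control was not tested. The sequences cover the 250 bases before the start, 5′ to 3′ on the gene's strand. Kcnn4 lies at chr7:24370013-24370262 on the plus strand, Kcnk7 at chr19:5704221-5704470 on the plus strand, and Orai2 at chr5:136170657-136170906 on the minus strand. Capitals mark matches, on either strand, to the letters TTANGTAA (bound by NFIL3 and related bZIP factors), AGGTGT (a T-box half-site), TGTGGT (RUNX), GGAAGT (ETS) and GGGCGG (GC box).
Kcnn4: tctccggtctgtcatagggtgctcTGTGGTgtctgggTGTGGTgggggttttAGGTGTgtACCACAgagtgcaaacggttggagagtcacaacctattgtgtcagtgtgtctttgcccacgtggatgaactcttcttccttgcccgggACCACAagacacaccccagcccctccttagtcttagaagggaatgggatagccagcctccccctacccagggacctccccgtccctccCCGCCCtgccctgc
Kcnk7: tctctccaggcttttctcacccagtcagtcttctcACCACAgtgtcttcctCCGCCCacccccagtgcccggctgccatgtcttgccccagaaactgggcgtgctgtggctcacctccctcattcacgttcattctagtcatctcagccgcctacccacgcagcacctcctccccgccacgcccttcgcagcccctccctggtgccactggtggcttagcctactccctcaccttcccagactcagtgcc
Orai2: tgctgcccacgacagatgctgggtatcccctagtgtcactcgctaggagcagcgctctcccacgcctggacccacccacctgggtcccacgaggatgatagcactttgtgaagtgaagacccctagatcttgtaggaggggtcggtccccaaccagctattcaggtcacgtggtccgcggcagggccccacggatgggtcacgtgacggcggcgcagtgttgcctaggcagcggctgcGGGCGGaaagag

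Upstream of Kcnn4, the RUNX letters were found 4 times, and the T-box half-site and the GC box once each. Kcnk7 held the RUNX letters and the GC box, and Orai2 the GC box. Of the 8 genes lower in TRAIL+ cells, 7 had a window of this kind. These were chosen by their calls in the same data. They include Kcnip3, Kcnn4 and Kcnk10, which entered the test only through the CD49b+ libraries, and matches were not counted without those genes. The GC box was in 6 of the 7 (35.4% of all 27025 genes with a window have a match), and the T-box, RUNX and ETS letters were each in 2 (13.6%, 15.9% and 22.2% of all genes). The NFIL3 letters were in 0 of the 7 and in 2.44% of all genes. Genes with several starts counted if any window matched. Only 3 of the 7 have a single start, so the others had more windows in which to match. The share over all genes also takes in genes not expressed here, so the 2 shares are not like for like. Of all 32851 windows, taken singly, 32.7% held the GC box, 11.8% the T-box, 14% the RUNX, 19.7% the ETS and 2.06% the NFIL3 letters, and no motif overlapped another in the 3 windows shown. A match describes letters only.

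Potassium channel genes were the largest group, with 90 rows, of which 29 were above 0 and 10 were tested. Kcnn4 encodes the calcium-activated potassium channel that helps lymphocytes keep a negative interior while calcium enters. It stood at 0.601 and 0.258 RPKM in TRAIL+ cells (7 reads in all) and at 7.05 and 5.97 RPKM in CD49b+ cells (109 reads). Both CD49b+ libraries were above both TRAIL+ libraries, as for any row that entered the test only through CD49b+ libraries. The means differed 15.2-fold (10.8 to 25.2 with 1 library left out), or -2.40 ± 0.25 on the log2 scale (standard error, here and after each ± of a log2 fold change), with an adjusted p from limma of 0.00451. CD49b+ libraries held 15.0 times the reads per library read, and the exact 95% counting interval ran from 7.03 to 38.2.

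Kcnk10 and Kcnk7 encode members of the family of background leak channels. Kcnk10 was listed at 0 in both TRAIL+ libraries and stood at 1.395 and 2.102 RPKM in CD49b+ cells (108 reads). Its log2 fold change was -1.45 ± 0.26 (limma adjusted p = 0.0274), a call lost without CD49b+ replicate 2 (adjusted p = 0.0679). Kcnk7 stood at 1.53 and 2.59 RPKM in TRAIL+ and at 7.38 and 6.81 RPKM in CD49b+ cells, 3.44-fold lower in the first (-1.42 ± 0.25, limma adjusted p = 0.0278). Kcnk7 missed the threshold when either CD49b+ library was left out (adjusted p = 0.151 and 0.105), with every row above 0 tested (0.0630) and with voom on the reads (0.0584). Both genes are low, and Kcnk7 rested on 18 reads in TRAIL+ cells and 65 in CD49b+ cells.

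The most abundant potassium pores showed no such gap. Kcnj8, the pore of an ATP-sensitive channel, stood at 81.4 and 79.9 RPKM in TRAIL+ and at 75.8 and 86.9 RPKM in CD49b+ cells, so the groups overlapped. The 95% interval of its log2 fold change, which was -0.01, ran from -0.41 to 0.39 (limma adjusted p = 0.989). Kcnk5, an acid-sensitive leak channel, stood at 21.7 and 16.4 against 16.3 and 19.9 RPKM, a log2 fold change of 0.06 with an interval of -0.47 to 0.60. Kcnj8 made up 60.4% to 72.7% of the summed RPKM of all potassium pore rows in each library and Kcnk5 12.96% to 16.3%, whereas Kcnn4 made up 0.451% and 0.235% in TRAIL+ and 5.61% and 4.35% in CD49b+ cells. The summed level of the pore rows was 133 and 110 RPKM in TRAIL+ and 126 and 137 RPKM in CD49b+ cells.

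Kcnq5 and Kcna3, which are named here after their values were seen, did not pass the test. Kcnq5, a voltage-gated pore of the M-current family, stood at 2.92 and 1.70 against 5.88 and 5.97 RPKM (log2 fold change -1.09 ± 0.26, limma adjusted p = 0.0676). It passed without TRAIL+ replicate 1 (0.0136), with quantile normalization (0.0425) and with voom on the reads (0.0435). Kcna3, the main voltage-gated potassium channel of T cells, stood at 22.0 and 6.84 RPKM in TRAIL+ and at 9.72 and 7.36 RPKM in CD49b+ cells. One TRAIL+ library was far above the other 3, so the 95% interval ran from -0.77 to 1.78 around its log2 fold change of 0.50 (adjusted p = 0.718 by limma). Without TRAIL+ replicate 2 Kcna3 was called higher (log2 fold change 1.28, adjusted p = 0.0180), and without TRAIL+ replicate 1 the value was -0.27. In both groups the library with more Kcna3 was replicate 1. Replicate 1 also held more summed marker RNA of monocytes and Kupffer cells, B cells, neutrophils, hepatocytes, and erythroid cells or platelets. The endothelial and stellate sum was higher there too, but was nearly all Pecam1 (52.75 of 53.03 RPKM in TRAIL+ replicate 1). Summed markers of T cells and of NK cells were instead lower in replicate 1 of both groups. For T cells these were 80.1 against 144 RPKM in TRAIL+ and 39.0 against 43.5 RPKM in CD49b+ libraries. The part of any of these cells in the Kcna3 values was not tested.

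Auxiliary subunits attach to pores and adjust them. Kcnip3 encodes a calcium-binding protein that partners voltage-gated potassium channels and can also repress transcription. It stood at 0.759 and 0.326 RPKM in TRAIL+ cells (14 reads) and at 31.6 and 28.1 RPKM in CD49b+ cells (791 reads). Every CD49b+ value lay far above every TRAIL+ value, and Kcnip3, like Kcnn4, entered the test only through CD49b+ libraries. The means differed 55.0-fold (39.4 to 91.5 with 1 library left out), or -4.33 ± 0.23 on the log2 scale (limma adjusted p = 0.000795). The ratio of reads was 54.4 (exact 95% counting interval 32.2 to 99.9).

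Kcnab2 and Kcnab3 encode beta subunits of voltage-gated potassium channels. Kcnab2 had a mean RPKM over the 4 libraries at the 95.6th percentile of tested genes. It stood at 82.3 and 79.5 RPKM in TRAIL+ and at 227 and 207 RPKM in CD49b+ cells, 2.68-fold lower in the first (-1.41 ± 0.16, limma adjusted p = 0.00586). Neither fit without a CD49b+ library called it (adjusted p = 0.0905 and 0.0631). Kcnab3 was low, at 0 and 0.104 RPKM (1 read) in TRAIL+ and 2.31 and 1.89 RPKM (44 reads) in CD49b+ cells. CD49b+ libraries held 42.3 times the reads per library read (exact 95% counting interval 7.21 to 1710), and its log2 fold change was -1.56 ± 0.24 (limma adjusted p = 0.0164, and 0.0611 without CD49b+ replicate 1).

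**Figure D2:**
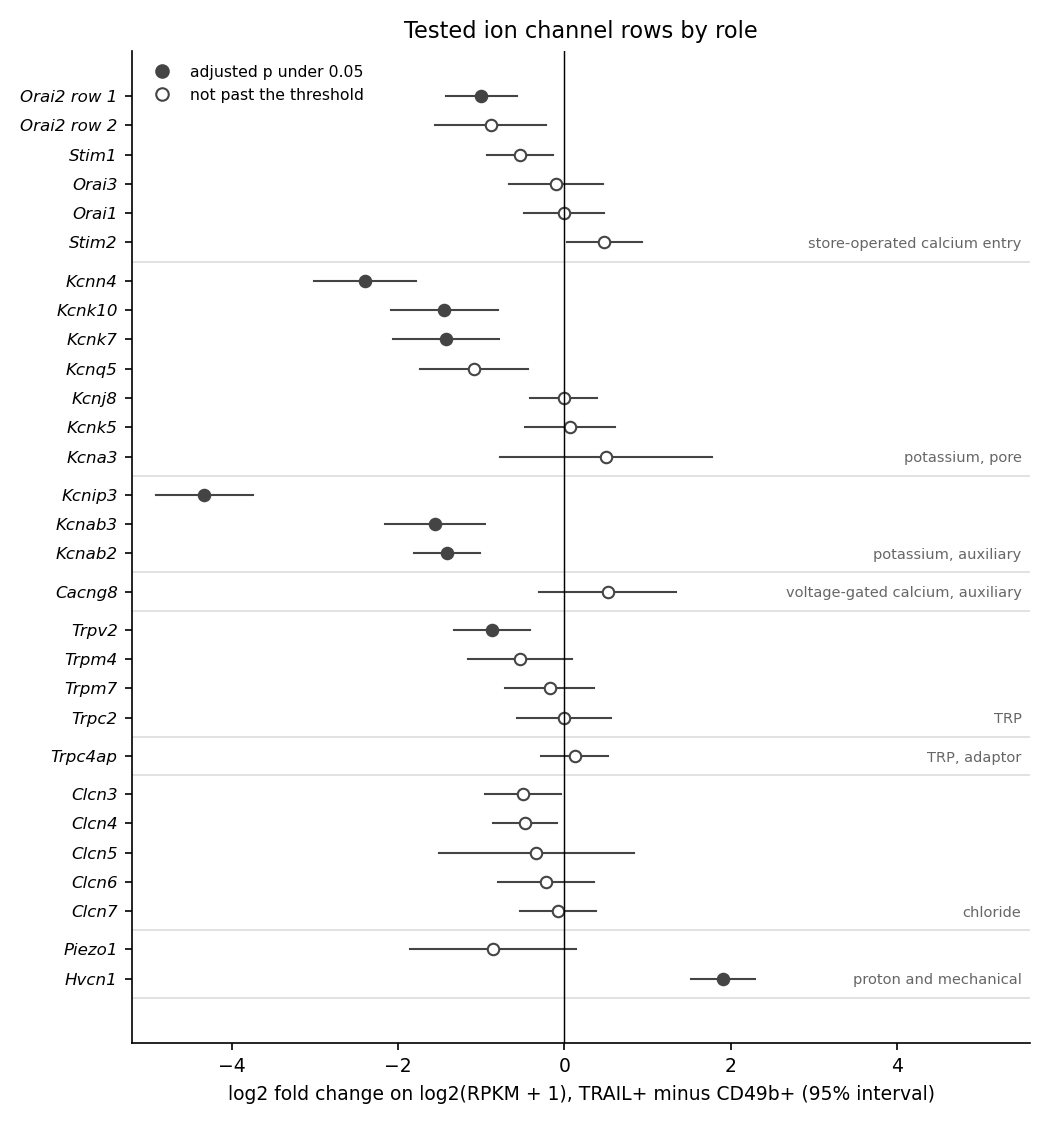
Log2 fold change (TRAIL+ minus CD49b+) of each of the 29 tested rows by role, with 95% intervals from limma and filled points for rows past the adjusted p of 0.05. Kcnip3 lies farthest to the left at -4.33 and Hvcn1 farthest to the right at 1.91.

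Store-operated calcium entry differed at Orai2 and not detectably at its other pores. Orai2, a pore subunit, stood in its main row at 16.7 and 14.3 RPKM in TRAIL+ and at 31.2 and 32.7 RPKM in CD49b+ cells, 2.06-fold lower in the first. On the log2 scale this was -0.9995 ± 0.1704 (limma adjusted p = 0.0234). Leaving out either CD49b+ library raised the adjusted p to 0.226 or 0.277, which ended the call. The other Orai2 row, of a different transcript, stood at 1.77 and 1.00 against 3.76 and 2.99 RPKM and did not pass (adjusted p = 0.130). It passed without TRAIL+ replicate 1 (0.0397). The 2 rows may share reads, so they are not independent.

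Orai1, the pore best known from T cells, stood at 30.8 and 40.7 RPKM in TRAIL+ and at 35.1 and 36.1 RPKM in CD49b+ cells, with a log2 fold change of -0.01 and a 95% interval of -0.48 to 0.47. Orai3, another pore subunit, stood at 60.2 and 82.7 against 67.2 and 85.6 RPKM, with -0.10 and an interval of -0.67 to 0.46. For both genes the groups overlapped. Orai3 made up 49.0% to 59.6% of the summed RPKM of the Orai genes in each library. Orai2, with its 2 rows added here and in the ratio below, made up 16.9% and 11.1% in TRAIL+ and 25.5% and 22.7% in CD49b+ cells.

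The store sensors Stim1 and Stim2 moved in opposite directions without passing the test. Stim1 stood at 48.9 and 42.9 RPKM in TRAIL+ and at 68.1 and 65.1 RPKM in CD49b+ cells (log2 fold change -0.53, interval -0.93 to -0.13, limma adjusted p = 0.129, and 0.0465 without TRAIL+ replicate 1). Stim2, which responds to smaller falls in store calcium, stood at 19.4 and 16.3 against 12.6 and 12.2 RPKM (0.48, interval 0.03 to 0.94, adjusted p = 0.223). The ratio of Stim1 to Stim2 RPKM was 2.58 ± 0.0786 (SD, n = 2) in TRAIL+ libraries, against 5.36 ± 0.0564 (SD, n = 2) in CD49b+ libraries. A two-sided exact permutation test of this ratio gave p = 0.333, which is the smallest p that 2 against 2 allows. The same p was found for the ratio of Orai1 to Orai2 (2.16 ± 0.700 against 1.01 ± 0.00456), and an exact permutation p of 1 for Orai3 to Orai1, the third of the 3 ratios computed.

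**Figure D3:**
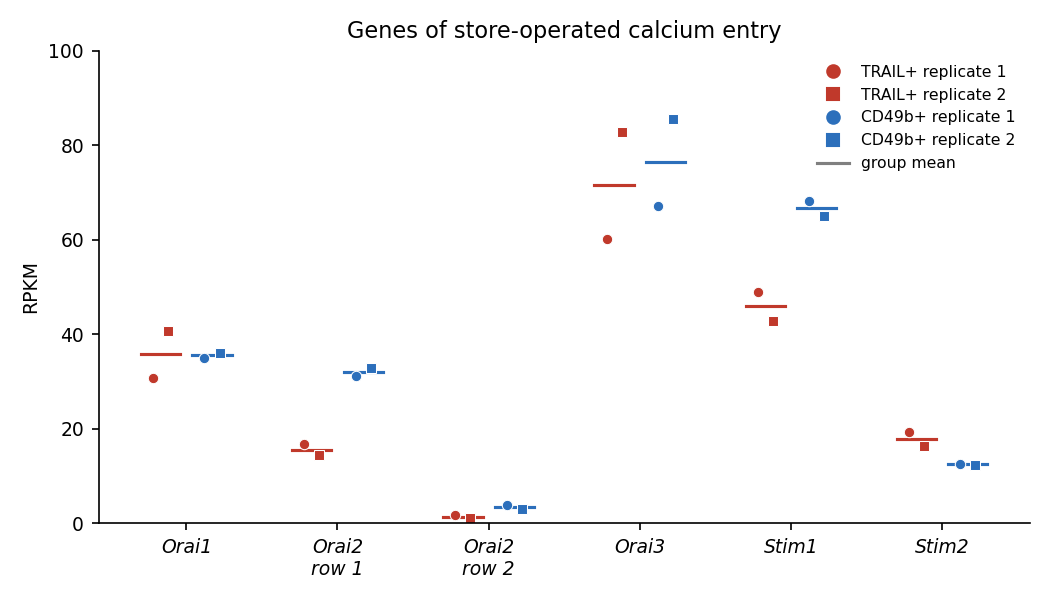
RPKM of the genes of store-operated calcium entry in each library, with circles for replicate 1, squares for replicate 2 and bars at group means. The main Orai2 row and Stim1 lie lower in both TRAIL+ libraries and Stim2 higher, and the groups overlap for Orai1 and Orai3.

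Among the other genes of calcium signalling, from a list of 37 with 33 tested, 2 were higher in TRAIL+ cells, 0 were lower and 31 did not pass (limma). Over all tested genes 4.76% were higher and 3.86% lower. The list's median log2 fold change was 0.07, against 0.01 for all tested genes. Plcg1 encodes a phospholipase C, an enzyme that makes the messenger releasing stored calcium. It stood at 11.7 and 5.08 RPKM in TRAIL+ and at 1.22 and 0.797 RPKM in CD49b+ cells (8.34-fold, log2 fold change 2.14 ± 0.39, limma adjusted p = 0.0299). Plcg2, which encodes another phospholipase C, was more abundant, at 73.95 and 49.21 against 60.55 and 48.43 RPKM. Plcg2 did not pass (log2 fold change 0.15 ± 0.25, limma adjusted p = 0.842). Plcg1 was no longer called without CD49b+ replicate 2 (adjusted p = 0.0764) or with every row above 0 tested (0.0699). Camk4, a calcium-dependent kinase, stood at 2.77 and 2.65 against 0.249 and 0.391 RPKM (log2 fold change 1.49 ± 0.23, adjusted p = 0.0162, and 0.0901 without CD49b+ replicate 1). Camk4 entered the test only through the TRAIL+ libraries, where it is high, so the filter alone kept its groups apart and favoured a call. Of the 6 tested T-cell markers, 5 were also higher in TRAIL+ cells and 1, Cd28, was lower (mean 8.86 against 25.9 RPKM). Cd4 and Cd8a, which are among the 5, likewise entered only through the TRAIL+ libraries. The 7 markers summed to 80.1 and 144 RPKM in TRAIL+ and 39.0 and 43.5 RPKM in CD49b+ libraries, with 0 of 7 listed at 0 throughout. Their part in Plcg1 and Camk4 was not tested. Calm2, a calmodulin gene and the most abundant of the list, did not pass (log2 fold change -0.56 ± 0.25). With every row above 0 tested, 1 gene of the list was higher and 1 lower. Without TRAIL+ replicate 1, 3 were higher and 3 lower, and without CD49b+ replicate 1 or 2, 1 was higher and 0 were lower.

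Hvcn1 was the only ion channel row called higher in TRAIL+ cells. It encodes the voltage-gated proton channel, which lets acid leave cells and balances the charge moved by the superoxide-making NADPH oxidase. It stood at 118 and 119 RPKM in TRAIL+ cells and at 29.3 and 32.4 RPKM in CD49b+ cells. Both TRAIL+ values were above both CD49b+ values and close to each other. The means of 119 and 30.9 RPKM differed 3.85-fold, or 1.91 ± 0.15 on the log2 scale (limma adjusted p = 0.00231), a call that held under all 12 alternatives tried. B cells and phagocytes also express Hvcn1. The 7 B-cell markers summed to 17.1 to 24.2 RPKM in TRAIL+ and 13.3 to 25.5 RPKM in CD49b+ libraries, so the groups overlapped, and 0 of the 7 were listed at 0 throughout. The 7 monocyte and Kupffer cell markers summed to 15.6 to 95.2 RPKM in TRAIL+ and 15.3 to 135 RPKM in CD49b+ libraries. The part of these cells in the Hvcn1 difference was not tested.

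Of the 7 NADPH oxidase genes tested, 1 was higher in TRAIL+ cells, 0 were lower and 6 did not pass (limma). Among all tested genes 4.76% were higher and 3.86% lower. Ncf1, a cytosolic organiser of the oxidase, stood at 35.1 and 34.2 RPKM in TRAIL+ and at 5.62 and 5.21 RPKM in CD49b+ cells (6.40-fold, log2 fold change 2.47 ± 0.17, adjusted p = 0.00133), and this call held under all 12 alternatives. Cybb, the catalytic subunit of the phagocyte oxidase, was low and uneven, at 3.50 and 0.610 against 4.61 and 0.374 RPKM. Rac2, the most abundant gene of the list, had a log2 fold change of -0.03 ± 0.22.

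Trpv2 led the TRP channels, a family of cation channels that respond to heat, stretch, lipids or calcium. It stood at 33.9 and 42.3 RPKM in TRAIL+ and at 65.4 and 75.1 RPKM in CD49b+ cells, 1.84-fold lower in the first (-0.87 ± 0.18, limma adjusted p = 0.0482). The groups did not overlap, but the call lay just inside the threshold and was lost under 7 of 12 alternatives. Those were both fits without a CD49b+ library (adjusted p = 0.258 and 0.433) and the other pseudocount, both other filters, a prior without trend and voom (0.0504 to 0.0713). Trpm7, a magnesium-permeable channel fused to a kinase, stood at 12.9 and 9.37 against 12.8 and 12.3 RPKM (adjusted p = 0.765). Trpc4ap, an adaptor that binds TRP channels and forms no pore, stood at 74.8 and 67.7 against 69.1 and 61.5 RPKM (adjusted p = 0.789). Trpm4 and Trpc2 were tested at means below 2 RPKM and did not pass, and of the 21 TRP channel rows 13 were listed at 0.

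Chloride transporters of the CLC family that were tested, Clcn3 to Clcn7, act in endosomes and lysosomes, where they exchange chloride for protons. Clcn4, the most abundant, stood at 25.3 and 25.0 RPKM in TRAIL+ and at 35.9 and 34.7 RPKM in CD49b+ cells. Clcn3 stood at 12.6 and 11.1 against 16.0 and 18.3 RPKM. Both were lower in both TRAIL+ libraries, with log2 fold changes of -0.48 ± 0.15 and -0.50 ± 0.18, and neither passed (limma adjusted p = 0.155 and 0.210). Clcn7, Clcn6 and Clcn5 had log2 fold changes of -0.08, -0.22 and -0.34 and adjusted p-values of 0.725 to 0.898. Clcn5 varied most between replicates, at 1.88 and 0.156 RPKM in TRAIL+ and 1.60 and 1.05 RPKM in CD49b+ cells.

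Piezo1, a channel opened by membrane stretch, stood at 5.20 and 2.01 RPKM in TRAIL+ and at 8.37 and 5.57 RPKM in CD49b+ cells. The lower CD49b+ value was just above the higher TRAIL+ value, and the log2 fold change of -0.86 ± 0.40 did not pass (limma adjusted p = 0.334). Without TRAIL+ replicate 1 it was called lower (-1.38, adjusted p = 0.0243). In Piezo1, as in Clcn5, replicate 1 of each group was the higher library. That replicate also held more marker RNA of monocytes and Kupffer cells, and of B cells, neutrophils, hepatocytes and erythroid cells. Summed markers of T cells and of NK cells were instead lower in replicate 1 of both groups. The part of any of these cells in the Piezo1 and Clcn5 values was not tested.

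Voltage-gated calcium channels had few reads at this depth. Of their 26 rows, 16 were above 0 and 10 were listed at 0, and no pore row among 10 had more than 7 reads in a library. Cacng8, an auxiliary gamma subunit known from neurons, was the only one tested, at 1.58 and 2.37 RPKM in TRAIL+ and 0.607 and 1.63 RPKM in CD49b+ cells (limma adjusted p = 0.503).

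Below the level set for testing, 6 rows were taken, the most that the rule for names allowed. They had the widest ratios of reads among rows with groups that did not overlap and at least 10 reads in 1 group. Their ratios are therefore wide by choice, and other rows met the same 2 conditions. The share of all low rows with groups apart was not worked out, and 2 against 2 libraries often lie apart by order alone. Of the 6 rows, 5 are given here, as values with no test. Kcnc1, a fast voltage-gated potassium pore, had 0 and 1 reads in TRAIL+ and 42 and 33 reads in CD49b+ libraries. Cacna2d4, a calcium channel subunit, had 1 and 1 against 10 and 6 reads. The other 3 were potassium pores with more reads in TRAIL+ libraries. Kcnk6 had 14 and 12 against 3 and 3 reads, Kcnj11, the pore of another ATP-sensitive channel, 9 and 6 against 0 and 1, and Kcna7 8 and 4 against 1 and 0. Over these 5 rows the ratios of reads ran from 4.50 for Kcnk6 to 72.2 for Kcnc1, whose exact 95% counting interval was 12.6 to 2888.

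Genes of other channels, pumps and volume control, from a list of 38 with 33 tested, showed 2 higher and 3 lower in TRAIL+ cells, with a median log2 fold change of -0.15. Of all tested genes 8.62% differed. The lower genes included Atp1b1 and Atp1b3, beta subunits of the sodium-potassium pump, which makes the potassium gradient that potassium channels use. Atp1b1 stood at 90.5 and 84.1 RPKM in TRAIL+ and at 240 and 225 RPKM in CD49b+ cells (2.66-fold, log2 fold change -1.40 ± 0.16, limma adjusted p = 0.00606). Atp1b3 stood at 98.9 and 137 against 388 and 417 RPKM (-1.78 ± 0.22, adjusted p = 0.00778). For both genes the CD49b+ libraries were above the TRAIL+ libraries. With CD49b+ replicate 1 or 2 left out, Atp1b1 (adjusted p = 0.0917 or 0.0708) missed the threshold, as did Atp1b3 without CD49b+ replicate 2 (0.0555).

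The higher genes of that list included Stk39. Stk39, a kinase that controls chloride cotransporters, stood at 21.2 and 22.7 RPKM in TRAIL+ and at 9.26 and 7.48 RPKM in CD49b+ cells (2.62-fold, log2 fold change 1.30 ± 0.19, limma adjusted p = 0.0142), and it was not called with CD49b+ replicate 1 or 2 left out (0.0716 or 0.158). Clic1, the most abundant gene of the list, did not pass (log2 fold change 0.08 ± 0.20). Without TRAIL+ replicate 1, 3 genes of the list were higher and 6 lower. Without CD49b+ replicate 1, 1 was higher and 1 lower, and without CD49b+ replicate 2, 1 was higher and 0 were lower.

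**Figure D4:**
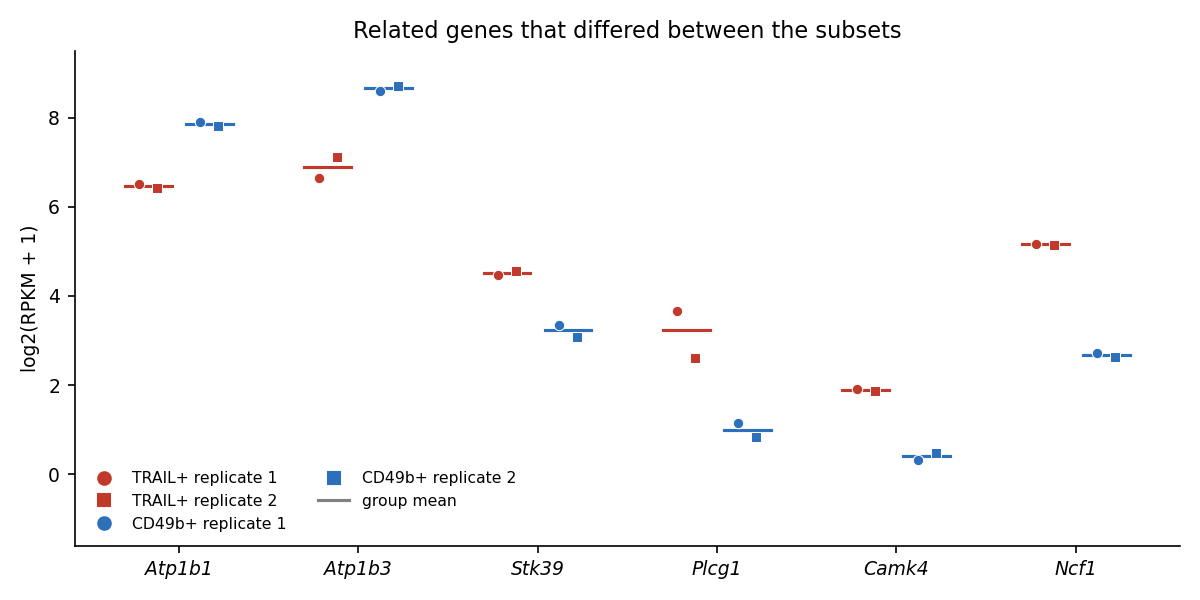
Values in each library, as log2(RPKM + 1), of 6 called genes of the related lists, with circles for replicate 1, squares for replicate 2 and bars at the log2 of the group mean plus 1. Atp1b1 and Atp1b3 are lower in both TRAIL+ libraries, and Stk39, Plcg1, Camk4 and Ncf1 are higher.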

How the data were processed

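RPKM values were deposited by the authors, 1 file per library, and RPKM is reads scaled to gene length and library reads, per the file headers. TopHat 1.4.1 and the build mm9 are listed in the submitters' processing notes. The counter, the annotation and any use of strand were not given in the sources used here. Without strand, reads of a gene and of an overlapping or antisense partner are not separable. Of 21025 rows, 20661 matched RefSeq GRCm38.p6 by accession. Whole reads were worked out from the RPKM steps within a relative tolerance of 1e-06, which held for 100% of 13681 rows above 0, and for 0 of 1000 rows after random scaling. Reads summed over rows exceed the library reads (4091701 to 4581051 against 3786497 to 4232967). Some reads may have been counted in more than 1 row. The worked-out reads also depend on lengths scaled to the annotated ones, and the 2 were not told apart. Ratios of reads have exact binomial intervals that cover counting error only. Rows that reached an RPKM of 1 in 2 or more libraries (10047) were tested by limma 3.58.1 (R 4.3.3) on log2(RPKM + 1), with a trended prior, the subset as the term and 2 residual degrees of freedom, and Benjamini-Hochberg adjustment over all of them. The code was tested on simulated data. Alternatives were another pseudocount, 2 other filters, 2 scalings, a prior without trend, voom on the reads, a replicate block and leaving out each library. The rule for names took all called rows, the 2 most abundant others of each role, every tested store-operated, proton and mechanical row, up to 6 low rows, and up to 4 called genes a direction and the most abundant gene of each related list. Other genes were named after their values were seen. The members and lists were chosen with earlier results of these data known. The markers Ly6g and Hba-a1 were not analysed here. Some genes that the rule for names took are not reported here, though the counts include them.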

Additional observations from a re-analysis of the deposited data

How the results depend on the processing

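Of the 9 called rows, Kcnip3, Kcnn4 and Hvcn1 passed under all 12 alternatives, and no called row reversed. Kcnip3 and Kcnn4 entered the main test only through the CD49b+ libraries, and Hvcn1 through both groups. All 9 kept their call with upper quartile scaling and quantile normalization, which moved the median of all genes to -0.03 and -0.02. With RPKM of at least 5 required, 5 members were lower, and Kcnab3 and Kcnk10 had no value. Leaving out 1 library gave 245 to 777 genes higher and 198 to 763 lower over all genes, 1 to 2 members higher and 3 to 12 lower, 1 to 3 higher and 0 to 3 lower calcium genes, and 1 to 3 higher and 0 to 6 lower genes of pumps and volume control. The lone library of a group was then assumed to vary like the other group. In the calcium list, 1 gene was higher with every row above 0 tested, where 1 was lower, and 1 was higher with RPKM of at least 5. A replicate block gave 1049 genes higher and 833 lower over all genes, and 13 members lower, 7 calcium genes higher and 3 lower, 4 genes of pumps and volume control higher and 6 lower, and 2 oxidase genes higher. With the block Kcnq5 (adjusted p = 0.0118), Stim1 (0.0215), the lower Orai2 row (0.0262), Clcn4 (0.0431) and Piezo1 (0.0289) were also called lower. Same-numbered libraries deviated together (correlation 0.56 across genes), but with 2 numbers and no label of a shared source the numbers were not taken as pairs. At these depths, rows of few reads and the 87 rows listed at 0 could not be compared.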

Other observations

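Kcnj8 stood near 80 RPKM in all 4 libraries, while Abcc8 and Abcc9, which encode the sulfonylurea receptors that pair with such pores, were listed at 0 in all 4. These partner genes were named after their values were seen. The cause was not tested.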
